A study of Homo sapiens with 9 samples.

Results

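Plasma membrane amino acid transporters were examined as a group of 10 genes, SLC7A11, SLC7A5, SLC3A2, SLC7A1, SLC1A5, SLC1A4, SLC38A1, SLC38A2, SLC7A6 and SLC36A4. They were chosen by name, with earlier results of these data known. All 10 were among the 16612 genes of the deposited table, and all 10 passed the filter on low counts that left 16312 genes to test. The cells were HNT34, an established acute myeloid leukemia line with a 3q26 rearrangement and high EVI1, a zinc finger transcription factor encoded by MECOM. They carried lentiviral short hairpin RNAs (shRNAs) on a vector with RFP and puromycin resistance, and RNA was taken 3 days after selection. Cells of the NT group carried a non-targeting control shRNA, and cells of the groups sh#16 and sh#87 carried 1 of 2 different shRNAs against EVI1, with 3 libraries in each group. The titles of the sh#87 libraries give the hairpin as 87, while another label field of the same libraries gives it as 18. The labels do not say whether the 3 libraries of a group came from separate cultures, so p-values measure the spread between these libraries, which may be technical.

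Amino acids cross the plasma membrane through carriers of several solute carrier families. SLC7A11, SLC7A5 and SLC7A6 are light chains that reach the cell surface bound to a shared heavy chain, SLC3A2, and each exchanges one amino acid for another. SLC1A5 and SLC38A1 bring in glutamine, which cells use as fuel and exchange for leucine, and SLC7A1 brings in arginine. Several of these genes are known targets of ATF4, a transcription factor made when amino acids run short, and SLC7A11 is also a known target of NFE2L2, the factor of the oxidative stress response.

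The promoters of the transporter genes are shown first, because ATF4 and NFE2L2 RNA fell in these cells (values follow) and both factors bind short known motifs. RefSeq windows of GRCh38.p14, each 300 bases long and running from 250 bases before to 50 bases after a transcript start, were held for 9 of the 10 genes, 16 windows in all, with none for SLC7A11. The C/EBP-ATF response element, to which ATF4 binds with a partner, was searched as TGATGNAA on both strands and stood in 5 of the 16 windows (31.2%), against 3.62% of 35116 windows of all genes. The antioxidant response element of NFE2L2, searched as TGACNNNGC, stood in 5 windows (31.2%, against 13.3% of all windows). The E-box CACGTG, to which MYC binds, stood in 2 windows (12.5%, against 7.26%). The EVI1 site GACAAGATA stood in 0 windows, against 0.0968% of all. Windows of 1 gene are not independent, and a match is a run of letters, not a site shown to be in use. The 5 matches to the C/EBP-ATF element are printed 5′ to 3′ on the gene's strand with up to 11 bases on each side, and the element, or its reverse complement, is in capitals.
SLC3A2, chr11:62881725-62881748, plus strand: tgcaggactccTTACATCAgctcc
SLC7A1, chr13:29595663-29595692, minus strand: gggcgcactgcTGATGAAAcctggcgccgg
SLC1A5, chr19:46784893-46784922, minus strand: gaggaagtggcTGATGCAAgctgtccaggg
SLC1A4, chr2:64989381-64989410, plus strand: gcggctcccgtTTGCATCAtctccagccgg
SLC38A1, chr12:46266502-46266531, minus strand: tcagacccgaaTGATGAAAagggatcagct

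SLC38A1 and SLC38A2 are neighbours on chromosome 12, on the same strand and 89144 bases apart, and their RNA behaved differently. The bases before the SLC38A2 start and before 1 of the 2 RefSeq starts of SLC38A1 are printed too. The C/EBP-ATF match, which runs 4 bases past that SLC38A1 start, is in capitals. The stretch before SLC38A2 held none of the 4 motifs. Neither did the window at the other SLC38A1 start (chr12:46267938-46268237), which is not printed. Whether the match bears on the difference in RNA was not tested.
SLC38A1, chr12:46266513-46266766, minus strand: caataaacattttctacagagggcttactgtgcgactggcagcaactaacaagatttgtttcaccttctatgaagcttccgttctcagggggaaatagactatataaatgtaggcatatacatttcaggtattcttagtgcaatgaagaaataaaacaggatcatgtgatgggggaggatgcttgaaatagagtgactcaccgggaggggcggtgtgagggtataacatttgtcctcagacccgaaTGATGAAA
SLC38A2, chr12:46372774-46373023, minus strand: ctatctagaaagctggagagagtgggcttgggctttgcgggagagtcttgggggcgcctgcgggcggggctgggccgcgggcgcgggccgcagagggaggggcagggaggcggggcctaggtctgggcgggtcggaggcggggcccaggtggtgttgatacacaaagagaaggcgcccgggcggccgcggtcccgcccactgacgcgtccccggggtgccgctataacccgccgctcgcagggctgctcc

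Of the 10 transporters, 6 were lower and 0 were higher with the libraries of both shRNAs as 1 group against NT. Among them the cystine carrier SLC7A11, the arginine carrier SLC7A1 and the glutamine carrier SLC38A1 fell most, to 2.12%, 16.1% and 22.4% of the NT level. SLC36A4, SLC1A4 and SLC7A6 fell less, to 51.0%, 68.0% and 77%. SLC7A5, SLC3A2, SLC1A5 and SLC38A2 did not pass the test. A gene passed at an adjusted p of at most 0.01 in edgeR's quasi-likelihood test with Benjamini-Hochberg adjustment over all 16312 genes, and it was called differentially expressed (DEG) where the log2 fold change was also at least 2 in size. Over all genes, 29.7% passed as lower and 30.1% as higher, so the 6 of 10 stand against a background in which about as many genes rose as fell. The 3 DEGs among the transporters were all lower, against 5.66% of all genes. The median log2 fold change was -0.50 over the 10 transporters and 0.05 over all genes.

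The size of the libraries and the state of the target were as follows. Totals ran from 17096170 to 43502389 counts. Levels are given as CPM, a gene's count as a share of the library total, scaled by edgeR's TMM factors. MECOM was at 504 ± 65.0 CPM (SD, n = 3) in NT, at 145 ± 1.53 with sh#16 and at 107 ± 1.60 with sh#87. Its log2 fold change was -1.81 with sh#16 and -2.23 with sh#87, so RNA of the target remained in both. The myeloid markers PTPRC, CD34, KIT and SPI1 were present in NT, at 853, 729, 85.7 and 75.5 CPM, and fell with the shRNAs, with log2 fold changes of -2.82, -3.20, -1.47 and -2.40, while CD33 was at 42.6 CPM in NT and did not pass with both shRNAs (log2 fold change -0.22). The 5 erythroid markers were not analysed here, and of the megakaryocyte list only ITGA2B was tested, which fell by 1.89 on the log2 scale. Of the lymphocyte list, CD3E and CD79A fell (log2 fold changes -1.20 and -3.36) and CD3G passed as higher at levels of at most 1.28 CPM in any library. COL1A1, a stromal marker, went from 0.116 CPM in NT to between 26.0 and 30.3 CPM in the knockdown libraries, and KRT18, an epithelial keratin, was at 91.2 CPM in NT and did not pass with both shRNAs (-0.44). In such bulk RNA, fewer cells of a type and less RNA per cell cannot be told apart, and the part of these markers in the transporter results was not tested.

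**Figure D1:**
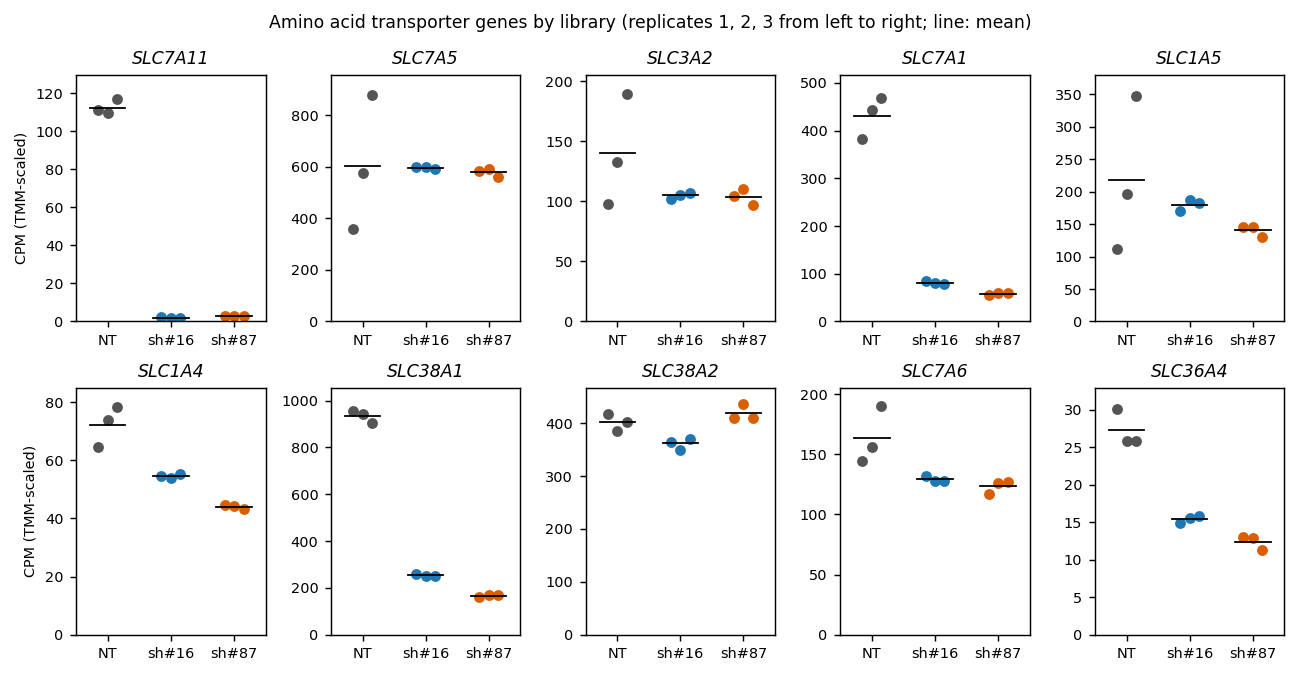
Level of each of the 10 transporter genes in CPM (vertical axes, each starting at 0) in the 3 NT, 3 sh#16 and 3 sh#87 libraries, with a line at the mean of each group. SLC7A11, SLC7A1 and SLC38A1 sit far below NT in all 6 knockdown libraries, while SLC7A5, SLC3A2 and SLC1A5 spread widely among the NT libraries.

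The light chains were followed first. SLC7A11 (NCBI Gene 23657, chromosome 4, 138164097 to 138242349 on GRCh38.p14) encodes xCT, which imports cystine in exchange for glutamate and so feeds glutathione. It stood at 111, 110 and 117 CPM in the NT libraries 1, 2 and 3, at 2.29, 1.80 and 1.81 CPM with sh#16 and at 2.91, 2.87 and 2.80 CPM with sh#87. All knockdown libraries lay far below all NT libraries, and every sh#87 library lay above every sh#16 library. Each knockdown library still held 33 to 83 counts, against 2538 to 3509 in NT. With both shRNAs the level was 47.1-fold lower (log2 fold change -5.56, SE 0.16, adjusted p = 1.07e-08, edgeR), which placed SLC7A11 49th from the lowest of 16312 genes. Each shRNA alone gave the same direction, with -5.85 for sh#16 and -5.30 for sh#87.

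SLC7A5 (Gene 8140, chromosome 16, 87830023 to 87869507) encodes LAT1, which imports leucine and other large neutral amino acids. Its levels were 359, 574 and 877 CPM in NT, 600, 598 and 590 CPM with sh#16 and 585, 593 and 562 CPM with sh#87. The NT libraries spanned the knockdown libraries on both sides, and the knockdown libraries hardly differed from each other. With both shRNAs SLC7A5 was at a log2 fold change of -0.04 (SE 0.21, 95% interval -0.46 to 0.37, adjusted p = 0.864, edgeR), and its sign turned under several alternatives. The table also held 2 annotated copies of SLC7A5, SLC7A5P1 and SLC7A5P2. Both had 0 counts in all NT libraries and 40 to 174 counts in the knockdown libraries, at most 0.869% of the SLC7A5 count, and adding them to SLC7A5 changed no call. In all, 86 genes of the table had 0 counts in every NT library.

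SLC7A6 (Gene 9057, chromosome 16, 68264526 to 68301819) encodes y+LAT2, which exchanges cationic for neutral amino acids. It was at 144, 156 and 190 CPM in NT, 132, 128 and 128 CPM with sh#16 and 117, 126 and 127 CPM with sh#87. All knockdown libraries were below all NT libraries by a small step. SLC7A6 was at a log2 fold change of -0.38 (SE 0.09, adjusted p = 0.00388, edgeR). With sh#16 alone the adjusted p was 0.00975, at the edge of the threshold, and the call was lost under upper-quartile scaling (adjusted p = 0.0207 with both shRNAs), without NT replicate 2 (0.0105) and with a correction for transcript length and GC content (0.0209). For sh#16 alone the call was also lost without any 1 of the 6 knockdown libraries, and for sh#87 alone without any 1 of its own 3.

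SLC3A2 (Gene 6520, chromosome 11, 62856109 to 62888860) encodes the heavy chain CD98, without which these light chains do not reach the surface. Its levels were 98.1, 132 and 189 CPM in NT, 102, 105 and 107 CPM with sh#16 and 105, 110 and 96.9 CPM with sh#87. Only NT replicate 1 fell within the range of the knockdown libraries. The log2 fold change was -0.43 (SE 0.16, 95% interval -0.74 to -0.11, adjusted p = 0.0334, edgeR). Without NT replicate 1 it was -0.64 and passed (adjusted p = 0.00125), and without NT replicate 3 it was -0.17 (adjusted p = 0.183, edgeR).

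To compare levels between genes, CPM was divided by the length of the canonical transcript in kilobases (GENCODE annotation), so that a value is CPM per kb. SLC7A11 was at 0.168 ± 0.0506 of the SLC3A2 level in NT (SD, n = 3), at 0.00367 ± 0.000609 with sh#16 and at 0.00539 ± 0.000288 with sh#87. Among the 3 light chains together, SLC7A11 made up 7.44 ± 2.53% of the per-length level in NT, 0.134 ± 0.0181% with sh#16 and 0.201 ± 0.00361% with sh#87. SLC7A5 per SLC3A2, as counted, went from 1.74 ± 0.208 in NT to 2.35 ± 0.0755 with sh#16 and 2.31 ± 0.0888 with sh#87, and NT (1.51 to 1.92) did not overlap the knockdown libraries (2.22 to 2.43). With each library corrected for transcript length and GC content the groups did overlap, since NT ran from 1.89 to 2.08, and the knockdown libraries began within that range and reached 2.33. SLC7A6 per SLC3A2 overlapped between the groups, at 0.367 ± 0.0715, 0.371 ± 0.0148 and 0.359 ± 0.0316.

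The arginine carrier followed. SLC7A1 (Gene 6541, chromosome 13, 29509414 to 29595688) encodes CAT1, the main importer of arginine and lysine in most cells. It was at 383, 443 and 468 CPM in NT, 84.3, 81.0 and 78.1 CPM with sh#16 and 56.0, 59.6 and 58.7 CPM with sh#87. The 3 groups did not overlap, with NT highest and sh#87 lowest. With both shRNAs SLC7A1 fell by 2.63 on the log2 scale (SE 0.15, adjusted p = 2.45e-07, edgeR), with log2 fold changes of -2.41 for sh#16 and -2.90 for sh#87. Its promoter window held the C/EBP-ATF element printed above, 7 bases past the start. The element also stood in windows of SLC1A4 and SLC38A1, which passed as lower, and of SLC3A2 and SLC1A5, which did not pass. SLC7A6 and SLC36A4 passed as lower with no match to it in their windows. Whether the element bears on the falls was not tested.

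The glutamine and neutral amino acid carriers split. SLC38A1 (Gene 81539, chromosome 12, 46183063 to 46269043) encodes SNAT1, a sodium-coupled importer of glutamine. It had the highest CPM of the 10 genes in NT, at 955, 941 and 906 CPM, and was at 257, 251 and 251 CPM with sh#16 and at 159, 169 and 170 CPM with sh#87. The groups were far apart and tight within themselves. The log2 fold change was -2.16 (SE 0.17, adjusted p = 2.28e-06, edgeR), with -1.89 for sh#16 and -2.50 for sh#87.

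SLC38A2 (Gene 54407, chromosome 12, 46358188 to 46372773) encodes SNAT2, a close relative that takes up small neutral amino acids. Its levels were 417, 385 and 403 CPM in NT, 365, 350 and 370 CPM with sh#16 and 410, 436 and 409 CPM with sh#87. The sh#16 libraries were a little below NT and the sh#87 libraries overlapped NT. The log2 fold change was -0.05 (SE 0.09, 95% interval -0.23 to 0.14, adjusted p = 0.659, edgeR), so a change beyond these bounds was not seen in this fit. SLC38A1 per SLC38A2, per length, was 1.38 ± 0.0603 in NT, 0.415 ± 0.0114 with sh#16 and 0.235 ± 0.00911 with sh#87. The more abundant of the 2 neighbours in NT was thus the less abundant in every knockdown library.

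SLC1A5 (Gene 6510, chromosome 19, 46774883 to 46788594) encodes ASCT2, which exchanges glutamine for other small neutral amino acids. It was at 111, 197 and 347 CPM in NT, 171, 187 and 183 CPM with sh#16 and 146, 146 and 130 CPM with sh#87. NT spanned both knockdown groups, and all sh#87 libraries were below all sh#16 libraries. The log2 fold change was -0.45 (SE 0.28, adjusted p = 0.162, edgeR). The log2 fold change of SLC1A5 was -0.78 without NT replicate 1 (adjusted p = 0.00712) and 0.04 without NT replicate 3, so 1 NT library decided the call.

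SLC1A4 (Gene 6509, chromosome 2, 64988479 to 65023865) encodes ASCT1, an exchanger of alanine, serine, cysteine and threonine. It was at 64.6, 73.8 and 78.4 CPM in NT, 54.6, 53.8 and 55.3 CPM with sh#16 and 44.8, 44.3 and 43.1 CPM with sh#87. The groups did not overlap, and the order was NT, sh#16, sh#87. SLC1A4 was at a log2 fold change of -0.56 (SE 0.11, adjusted p = 0.00122, edgeR).

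SLC36A4 (Gene 120103, chromosome 11, 93144174 to 93197991) encodes PAT4, a transporter of proline and tryptophan. It was the lowest of the 10 per length in NT, at 30.1, 25.8 and 25.8 CPM, and was at 14.9, 15.5 and 15.8 CPM with sh#16 and at 13.1, 12.9 and 11.3 CPM with sh#87. Every knockdown library was below every NT library. SLC36A4 was at a log2 fold change of -0.97 (SE 0.12, adjusted p = 5.18e-05, edgeR).

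**Figure D2:**
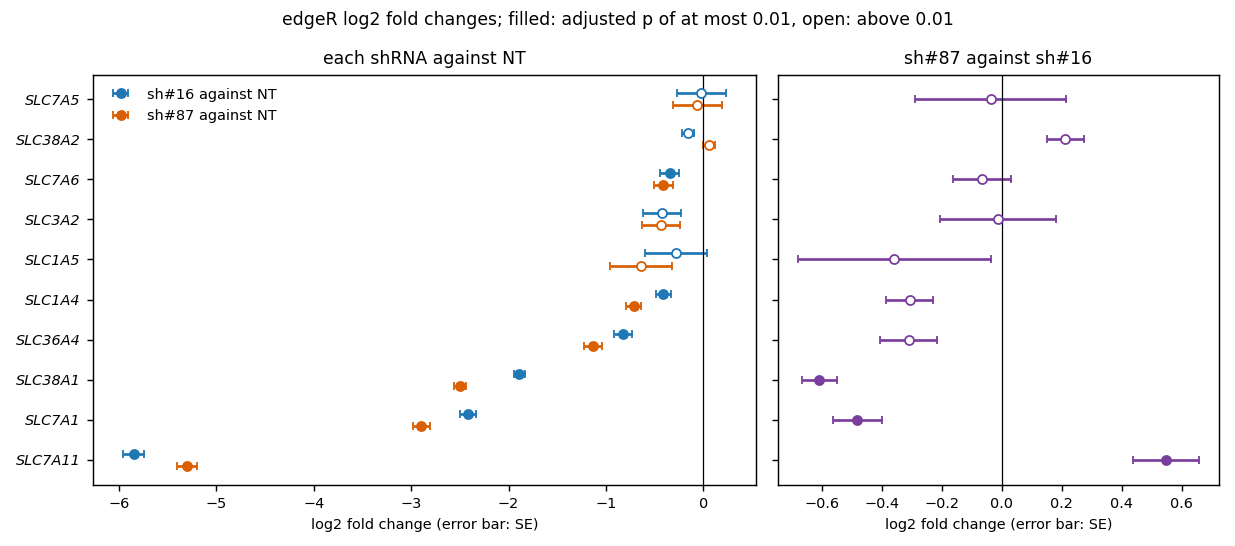
The edgeR log2 fold change with its SE (horizontal axes) for each transporter gene, on the left for sh#16 and sh#87 against NT and on the right for sh#87 against sh#16, where filled points passed an adjusted p of 0.01. SLC7A11, SLC7A1 and SLC38A1 stand apart on the left, from -5.85 to -1.89, and are the 3 filled points on the right.

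For 6 of the 10 transporters all knockdown libraries lay below all NT libraries, as they did for 31.9% of all genes tested. These were the same 6 genes that passed as lower, and both counts rest on the same values. With sh#16 alone, 6 of the 10 were lower and 0 higher, against 30.2% and 29.8% of all genes, and 2 were DEGs (4.84% of all genes were lower DEGs), since SLC38A1 at -1.89 fell short of the fold threshold. With sh#87 alone the same 6 genes were lower and 0 were higher, against 33.6% and 34.3%, and 3 were DEGs against 7.14%. Both comparisons share the NT libraries, and their values stand side by side here without being counted as independent. The median log2 fold change over the 10 was -0.42 with sh#16 and -0.68 with sh#87, and over all genes 0.04 in each. The CPM of the 10 genes summed to 3104 ± 468 in NT, 1778 ± 5.95 with sh#16 and 1650 ± 45.9 with sh#87.

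The shRNAs were then compared with each other. Between sh#87 and sh#16, 1 transporter passed as higher and 2 as lower, against 8.29% and 9.42% of all genes. SLC7A11 was higher with sh#87 (log2 difference 0.55, SE 0.11, adjusted p = 0.00604, edgeR), although both levels were near the bottom of its range. SLC7A1 was lower with sh#87 (-0.48, SE 0.08, adjusted p = 0.00252) and so was SLC38A1 (-0.61, SE 0.06, adjusted p = 2.21e-04, edgeR). MECOM itself was lower with sh#87, by 0.43 on the log2 scale. In this fit of all 9 libraries, SLC1A4 (-0.31, adjusted p = 0.0154) and SLC36A4 (-0.31, adjusted p = 0.0335) did not pass, nor did SLC38A2 (0.21, adjusted p = 0.0269, edgeR). All of them passed in an edgeR fit of the 2 shRNA groups alone. There SLC1A4 was at -0.29 (adjusted p = 1.17e-04), SLC36A4 at -0.29 (0.00582) and SLC38A2 at 0.23 (8.44e-04). For SLC7A5 the 95% interval of the difference was -0.53 to 0.46, for SLC3A2 -0.39 to 0.37, for SLC1A5 -0.99 to 0.27 and for SLC7A6 -0.25 to 0.12. These intervals take in the spread of the NT libraries. With the 2 shRNA groups alone, SLC1A5 passed as lower with sh#87 (-0.34, adjusted p = 4.18e-04, edgeR), and SLC7A11 did not pass (adjusted p = 0.0114). Of all genes, 23.47% were higher and 24.56% lower in that fit. The calls for SLC7A11 and SLC7A1 were close to the threshold. SLC7A11 lost its call without NT replicate 2 (adjusted p = 0.0127), without sh#16 replicate 2 (0.0545, log2 difference 0.47) or 3 (0.0262), and without any 1 of the sh#87 libraries (0.0204 to 0.0242). SLC7A1 lost its call without any 1 of the 6 knockdown libraries (adjusted p from 0.0101 to 0.0148), while SLC38A1 passed with any 1 library left out.

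The order of the genes by level also changed. Per kb of transcript, the NT order by mean was SLC7A5 at 132 ± 57.2 CPM per kb (SD, n = 3), SLC38A1 at 115 ± 3.13, SLC38A2 at 83.8 ± 3.34, SLC1A5 at 75.7 ± 41.5, SLC3A2 at 74.2 ± 24.4, SLC7A1 at 58.7 ± 5.96, SLC7A6 at 26.1 ± 3.79, SLC1A4 at 15.8 ± 1.53, SLC7A11 at 11.7 ± 0.392 and SLC36A4 at 4.51 ± 0.413. The first places cannot be ordered beyond their spread, since SLC7A5 ranged from 78.7 to 193 in NT and SLC1A5 from 38.5 to 120, while from SLC7A1 on the ranges of neighbours did not overlap. With sh#16, SLC38A1 stood below SLC3A2 at 31.3 ± 0.448 and SLC7A1 below SLC1A4 at 11.1 ± 0.424, with SLC1A4 just above at 11.8 to 12.1 CPM per kb. With sh#87, SLC38A1 at 20.5 ± 0.734 overlapped SLC7A6 at 19.7 ± 0.890. SLC7A5 was first in both knockdown groups, at 131 ± 1.20 and 127 ± 3.52, and SLC7A11 was last, at 0.204 ± 0.0291 and 0.296 ± 0.00573.

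**Figure D3:**
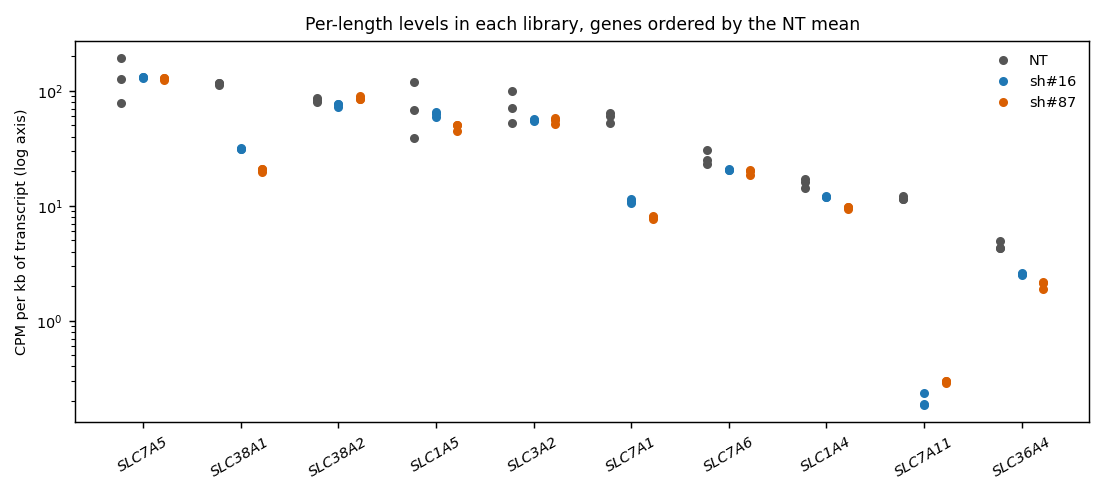
CPM per kb of transcript (vertical log axis) of the 10 transporter genes in the 9 libraries, with genes ordered from left to right by their NT mean. SLC7A11 drops from about the level of SLC1A4 in NT to the bottom of the plot at 0.204 and 0.296 CPM per kb, and SLC38A1 and SLC7A1 drop below genes they exceeded in NT.

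SLC7A5, SLC3A2 and SLC1A5 need to be read with the spread among the NT libraries. From NT replicate 1 to NT replicate 3 the level differed 2.45-fold for SLC7A5, 1.93-fold for SLC3A2 and 3.13-fold for SLC1A5, and their coefficients of variation in NT were 43.2%, 32.9% and 54.8%, against a median of 13.7% over 11119 genes with a mean of at least 5 CPM. The median over those 11119 genes was 3.59% within sh#16 and 5.10% within sh#87, so the NT libraries varied more over genes in general. Within sh#16, SLC7A5, SLC3A2 and SLC1A5 varied by 0.917%, 2.37% and 4.75%. They are the 3 transporters with the most GC in the transcript, at 61.2%, 57.8% and 61.3%. Over the 10 genes the log2 difference of NT replicate 3 from NT replicate 1 correlated with GC content at r = 0.893, and over 10650 genes at r = 0.676, and these points all come from the same pair of libraries. The median difference ran from -0.30 in genes with at most 40% GC to 0.95 in genes above 60%. The share of mitochondrially encoded counts also differed in NT, at 15.9%, 11.5% and 4.69% in replicates 1, 2 and 3, and between the groups, at 2.69 to 2.88% with sh#16 and 4.62 to 5.97% with sh#87. The part of this share in the transporter results was not tested beyond leaving these genes out of the library totals, which changed no call of a transporter.

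A correction for transcript length and GC content in each library, added after the data were seen, drew the NT libraries together for these 3 genes and moved their fold changes. The NT coefficient of variation became 18.5% for SLC7A5, 15.2% for SLC3A2 and 30.2% for SLC1A5, while it rose from 3.30% to 14.5% for SLC7A11, from 3.99% to 10.3% for SLC38A2 and from 14.5% to 16.7% for SLC7A6. With the correction, SLC7A5 was lower by 0.66 on the log2 scale in edgeR (adjusted p = 2.97e-04), SLC3A2 was at -0.77 (1.74e-05) and SLC1A5 at -1.01 (5.02e-04). For each of the 3 genes all knockdown libraries were then below all NT libraries. SLC7A5, for example, was at 646, 789 and 939 corrected CPM in NT and between 473 and 535 in the knockdown libraries. SLC38A2 turned to 0.35 (adjusted p = 0.0221), and with sh#87 alone it was higher by 0.51 (adjusted p = 1.04e-04, edgeR). The count of lower transporters went from 6 to 8, with SLC7A6 lost and SLC7A5, SLC3A2 and SLC1A5 gained. Over all genes the share of lower genes went from 29.72% to 34.86% and the median log2 fold change from 0.05 to -0.05. SLC7A11, SLC7A1, SLC38A1, SLC1A4 and SLC36A4 were lower with and without the correction.

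**Figure D4:**
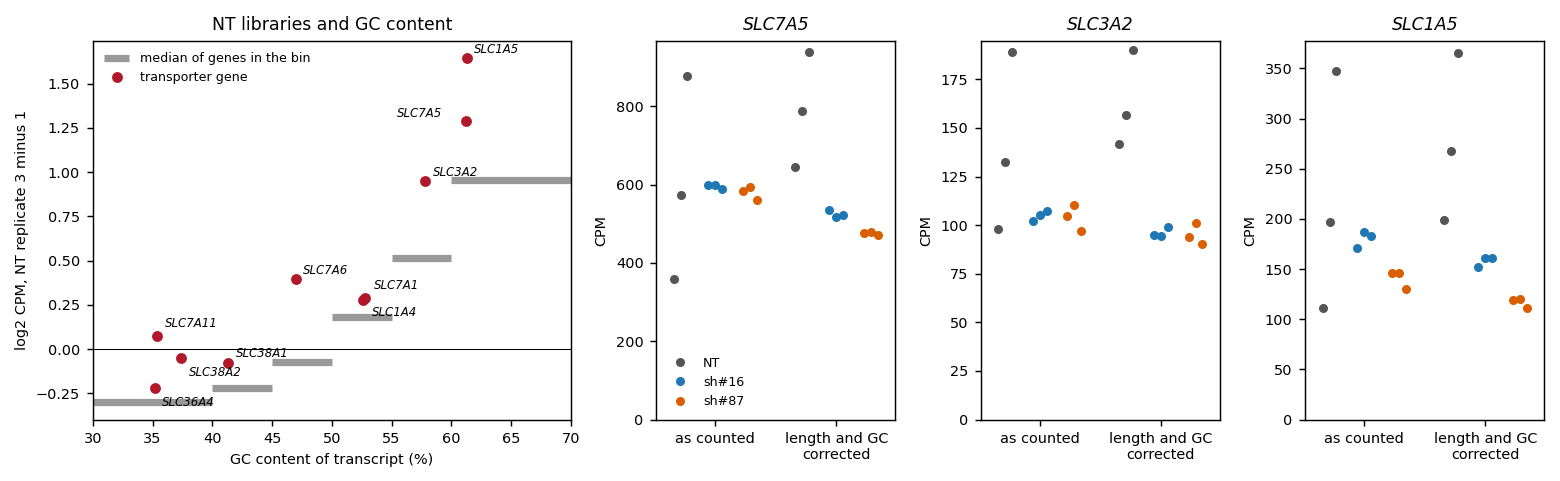
On the left, the log2 CPM difference of NT replicate 3 from NT replicate 1 (vertical axis) against the GC content of the transcript in percent, with bars at the median of all genes in each GC bin. The other panels plot CPM of SLC7A5, SLC3A2 and SLC1A5 in each library as counted and after the length and GC correction, where the 3 NT points move above all knockdown points.

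The genes whose pattern over the 9 libraries was most like that of a transporter were taken for the highest and the lowest fold change. Across 11119 genes, SLC7A11 correlated most with OVCH1-AS1 (Pearson r = 0.9986), C10orf95-AS1 (0.9975) and RP11-706O15.1 (0.9975), and SLC7A5 with PFAS (0.9934), PIEZO1 (0.9929) and MBOAT7 (0.9917). The genes nearest to SLC7A11 fell less than it did, with log2 fold changes of -1.99, -1.76 and -1.55 against -5.56. The genes nearest to SLC7A5 had log2 fold changes of -0.07, -0.01 and -0.05, so they share its spread among the NT libraries, and not a change with the shRNAs.

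Other genes of amino acid supply were counted over whole lists. Of 29 other plasma membrane transporters 9 were tested, and with both shRNAs 3 were higher, 5 lower and 1 did not pass, where 30.1% of all genes were higher and 29.7% lower. These shares of all genes also stand behind each count of the lists that follow. SLC38A5, another glutamine carrier, fell by 2.76 on the log2 scale, from 32.1 CPM in NT to 5.53 and 3.96 CPM. SLC43A1, a leucine carrier, fell by 1.97, and SLC1A3, a glutamate and aspartate carrier, by 1.30. SLC43A2, a relative of SLC43A1, rose by 1.69, from 5.88 CPM to a range of 16.9 to 21.4 CPM in the knockdown libraries. SLC38A4 was at 0.940 CPM in NT and at 0 counts in all 6 knockdown libraries. Without NT replicate 1, or without NT replicate 2, the counts were 1 higher and 4 lower. Of all genes, 25.15% were higher and 27.47% lower without NT replicate 1, and 22.97% and 24.91% without NT replicate 2.

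Carriers of the lysosomal membrane, which move amino acids between lysosome and cytosol, were counted as a separate list. Of 8 listed, 7 were tested, and 4 were higher, 0 were lower and 3 did not pass (all genes 30.1% higher and 29.7% lower). MFSD12, which brings cysteine into lysosomes, rose by 1.60 on the log2 scale, SLC36A1 by 1.11 and SLC38A9, which reports lysosomal arginine to mTORC1, by 0.61.

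Among 15 regulators of transporter genes, 10 were lower, 1 was higher and 4 did not pass (all genes 29.7% lower and 30.1% higher). ATF4 stood at 719 ± 65.0 CPM in NT, 135 ± 5.73 with sh#16 and 123 ± 4.61 with sh#87 (log2 fold change -2.48, adjusted p = 2.76e-08, edgeR), and its groups did not overlap. Its targets DDIT3, TRIB3 and ATF3 fell too, with log2 fold changes of -2.75, -2.90 and -2.43. NFE2L2 was at -0.85 (adjusted p = 9.89e-05), and BACH1, a repressor at antioxidant response elements, rose by 0.63 (adjusted p = 1.31e-04, edgeR). MYC was at 369 CPM in NT, 260 with sh#16 and 101 with sh#87 and did not pass with both shRNAs as 1 group (-1.03, adjusted p = 0.0264). MYC was lower with each shRNA alone, at -0.51 for sh#16 (adjusted p = 0.00665) and -1.87 for sh#87 (1.86e-06), and lower with sh#87 than with sh#16 (-1.36, adjusted p = 2.35e-04, edgeR). Whether any of these changes bears on the transporters was not tested.

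The genes that use what the carriers bring in were mixed. Of 11 cysteine and glutathione genes 3 were lower, 1 higher and 7 did not pass, a share of lower genes near the 29.7% of all genes. CHAC1, which breaks glutathione down, fell by 3.55 on the log2 scale, CBS, which makes cystathionine on the way to cysteine, by 2.41, and CTH, the next enzyme, by 0.51. GCLC, the catalytic subunit of the first enzyme of glutathione synthesis, rose by 0.50. Of 11 tested genes for the use of glutamine, leucine and arginine, 6 were higher and 2 lower (all genes 30.1% and 29.7%). Without NT replicate 2 the counts were 3 and 1, near the 23.0% and 24.9% of all genes in that setting. BCAT1, which transaminates leucine, fell from 945 to 76.0 and 40.2 CPM (-4.03). ASL, ODC1 and BCKDHB rose by 0.92, 0.68 and 0.62.

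In the machinery by which mTORC1, a growth kinase, senses amino acids, 17 of 34 genes were higher, 8 lower and 9 did not pass, against the 30.1% and 29.7% of all genes. Genes that rose and genes that fell were found within the same complexes. The arginine sensors CASTOR1 and CASTOR2 were at 2.52 and 2.06 on the log2 scale, SESN3, of the family that senses leucine, at 1.74 and NPRL2, a subunit of the inhibitory GATOR1 complex, at 1.47. NPRL3, another subunit of GATOR1, fell (-0.71). RHEB, the direct activator of mTORC1, fell (-1.14). Of mTORC1 itself, MLST8 fell (-0.89) and MTOR rose (0.94). Of the GATOR2 complex, SEH1L and MIOS fell (-0.82 and -0.52), and SEC13, WDR24 and WDR59 rose (0.92, 1.03 and 0.50). Of the Ragulator complex, LAMTOR5 fell (-0.78) and LAMTOR4 rose (0.80). The Rag GTPases RRAGA and RRAGC rose (0.99 and 0.60), and RRAGB fell (-0.47). CASTOR1 was low, at 0.952 CPM in NT and at 4.95 and 6.24 CPM with the shRNAs.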

How the data were processed

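Estimated counts per gene were deposited by the authors as 1 table of raw, unnormalized values for 9 polyA-selected, strand-specific libraries. The study's methods name STAR v2.7.1a gene counts on GRCh38, and the submitters' processing notes name FastQC and STAR, while the header names salmon for each library; all values were whole numbers. Header names stand 1 column left of the values they name and were matched in that order to the titles. Counts were tested in edgeR 4.0.16 (R 4.3.3; filterByExpr, TMM, quasi-likelihood): both shRNAs as 1 group against NT in a fit of 2 groups, the other comparisons in a fit of 3 groups. SEs are the log2 fold change divided by the root of F, and 95% intervals take it as normally distributed. DESeq2 1.42.0 and limma-voom 3.58.1 were alternatives, as were other scalings, filters, thresholds, a replicate block and each library left out; the length and GC correction (loess, span 0.5, 14019 genes) was added after the data were seen. The fits were tested on simulated data. Named genes of other lists are up to 4 at each end with an adjusted p of at most 0.01 in all 3 contrasts against NT, the same direction and 5 CPM. Others named (SLC38A4, MYC, NFE2L2, CD33, CD3G, KRT18, NPRL3, MTOR, MIOS, SEC13, WDR24, WDR59, LAMTOR4, RRAGA, RRAGB, RRAGC) were chosen after their values were seen. Some genes of the lists are not reported here. The members and lists were chosen with earlier results of these data known. Samples sharing a number did not deviate together (r from -0.137 to 0.0827 over 9 pairs). Gene positions and promoters are from RefSeq (GRCh38.p14), lengths and GC from GENCODE v44 transcripts.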

Additional observations from a re-analysis of the deposited data

Results flagged for a closer look

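The response to sh#87 differed from the response to sh#16 for 3 transporters, by a test of the difference itself (edgeR, fit of all 9 libraries in 3 groups). SLC7A11 was higher with sh#87 by 0.55 on the log2 scale, in 3 of 3 libraries against all 3 with sh#16. The differences of SLC7A1 (-0.48) and SLC38A1 (-0.61) went the other way, with all 3 sh#87 libraries below all 3 sh#16 libraries. In a fit of the 2 shRNA groups alone the set of genes changed. SLC7A11 did not pass there (adjusted p = 0.0114, edgeR), while SLC1A5, SLC1A4 and SLC36A4 also passed as lower and SLC38A2 as higher. No transporter had a library that stood apart from the other knockdown libraries by Dixon's criterion, taken over both shRNAs together. Where the shRNA groups differ, that gap widens the range and can hide such a library. The NT libraries were not checked in this way.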

How the results depend on the processing

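The falls of SLC7A11, SLC7A1, SLC38A1, SLC1A4 and SLC36A4 against NT passed under every alternative tool, scaling, filter and left-out library run. Lower transporters numbered 5 to 8 with a library left out for both shRNAs, 5 to 7 for sh#16 and 5 to 8 for sh#87. The shares of all genes were 24.91% to 29.96%, 25.09% to 34.18% and 29.29% to 36.43%. With a log2 fold change of at least 1 they were 3 for both shRNAs and 3 for sh#16, against 17.15% and 15.49% of all genes. With sh#87, SLC36A4 (-1.14) also reached that size. At 2 or more they were 3 for both shRNAs, 2 for sh#16 and 3 for sh#87, against 5.66%, 4.84% and 7.14% of all genes. The length and GC correction made 1 transporter (SLC38A2) higher with sh#87.

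Signs turned for SLC7A5, SLC38A2, SLC1A5 and SLC3A2, in comparisons that did not pass. SLC7A5 was at 0.0736 under upper-quartile scaling, 0.0586 in limma-voom, 0.069 in weighted limma-voom and 0.0168 with the replicate block for both shRNAs. For sh#16 the same settings gave 0.0845, 0.0702, 0.0658 and 0.0344, and for sh#87 the first 3 gave 0.0625, 0.0328 and 0.0283. With a library left out, SLC7A5 ran from -0.3209 to 0.3097 for both shRNAs, -0.307 to 0.3238 for sh#16 and -0.3352 to 0.2955 for sh#87, and SLC1A5 from -0.7798 to 0.0351 for both and -0.6164 to 0.1992 for sh#16, the highest values all without NT replicate 3. SLC38A2 was at 0.063 (upper-quartile) and 0.3509 (correction), and at 0.1717 with the correction for sh#16. SLC3A2 between the shRNAs was at 0.0034 (upper-quartile), 0.0027 (fit of 2 groups) and -0.0562 to 0.037 with a library left out. Upper-quartile scaling moved the median of all genes from 0.05 to 0.16. The causes were not tested.

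Between the shRNAs, higher transporters were 2 in DESeq2 (11.83% of all genes) and 2 at an adjusted p of 0.05 (16.04%). They were 0 at either fold threshold and 0 to 2 with a library left out (2.88% to 15.53%). Lower ones were 5 in the fit of 2 groups (24.56% of all genes) and 4 at 0.05 (17.67%). These were 0 at either fold threshold and 1 to 3 with a library left out (3.72% to 16.83%). The library numbers share no known pairing; with them as a replicate block, SLC7A11 between the shRNAs (0.54, adjusted p = 0.0177) and SLC7A6 with sh#16 (-0.34, adjusted p = 0.0145) lost their calls in edgeR, leaving 0 higher between the shRNAs.

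SLC7A11 had 33 to 83 counts per knockdown library, which limits the precision of its difference between the shRNAs.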
